A study of Nematostella vectensis with 8 samples.

Results

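The genes described here are the 94 genes whose transcripts were more abundant in the NvfoxE-like shRNA library than in the scramble control library of the same replicate number in all 4 pairs, out of 24520 genes in the deposited tables. A gene was a member when it averaged at least 2 CPM (estimated counts per 1000000 counts of the library) in the shRNA libraries, when its log2 ratio of shRNA over control was at least 0.3 in every pair, and when the mean of its 4 ratios was at least 0.585, which is a 1.5-fold difference. For the ratio, 2 counts were added to each estimated count before division by the library total. The nuclear receptor gene coup-like2 and the forkhead gene foxL2 also met these limits and were left out by choice, with mean ratios of 0.86 and 0.71. The members were thus selected on their ratios between shRNA and control libraries, and these ratios are given below as a description and not as a test of the knockdown.

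Whole gastrula embryos of the sea anemone Nematostella vectensis, of wildtype genotype in both groups, were collected 28 hours after fertilization at 24 °C. They had been injected either with NvfoxE-like shRNA, a mix of a pair of hairpins whose separate effects cannot be told apart, or with scramble RNA as the control. Each group held 4 libraries, replicates 1 to 4, and each library came from a pool of about 1000 embryos. The library names of replicates 3 and 4 share the prefix LA20 and those of replicates 1 and 2 the prefix LA19, while the batch label is the same for all libraries. The meaning of the prefix is therefore unknown.

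Forkhead (Fox) genes encode transcription factors that bind DNA through a winged-helix domain, and they switch target genes on or off during development. In Nematostella the gastrula is a stage at which cnidocytes, the stinging cells of cnidarians, are being made from progenitors in the ectoderm, and mature cnidocytes carry a capsule built largely from minicollagens. A short hairpin RNA lowers the mRNA of its target through the RNA interference machinery. In whole embryos a lower level can come from fewer cells of a type or from less RNA per cell, and a higher level from more cells or more RNA per cell, and bulk libraries cannot tell these apart.

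The libraries held between 18656270 and 26073612 estimated counts, and a count of 0 allowed a level of up to 0.115 to 0.161 CPM (3 counts, counting error only). The labels were checked on the targeted gene. NvfoxE-like (NV2.25991) had 10.5, 6.22, 12.7 and 16.8 CPM in shRNA replicates 1 to 4, against 29.1, 13.7, 48.8 and 49.5 CPM in the control replicates. It stood at 36.1%, 45.5%, 26.1% and 33.9% of the control level in pairs 1 to 4. Of 38 published cnidocyte genes with an identifier in the tables, 34 had enough counts to test, which shows cnidocyte transcripts in these embryos, and the only genes of that collection within the limits of the choice were the left-out coup-like2 and foxL2. The replicate numbers separated the libraries far more than the treatment did. The first principal component of log2 levels took up 84.2% of the variance. Its scores were 95 and 73.0 in shRNA replicates 3 and 4 and 98 and 46.3 in the same control replicates, against -24.3 and -112.2 in shRNA replicates 1 and 2 and -31.7 and -144.0 in the same controls. Within pairs the shRNA library sat at a higher score than its control by 7.4, 31.8 and 26.7 in pairs 1, 2 and 4 and at a lower score, by -3.0, in pair 3.

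The limits of the choice narrowed the genes in steps. A mean of at least 2 CPM in shRNA libraries was reached by 15441 genes, of which 1976 (12.8%) were higher in the shRNA library of all 4 pairs and 1267 lower in all 4. A ratio of at least 0.3 in every pair left 126 genes. The mean limit then left 96, the left-out pair included. The mirrored limits, with every sign turned and the minimum level set on the control libraries instead, gave 263 falling genes. Just inside the mean limit were NV2.16551, NV2.24732 and NV2.14741 with mean ratios of 0.60, 0.60 and 0.59, and just outside it NV2.16605, NV2.23471 and NV2.1645 with 0.58, 0.56 and 0.56. At the limit for single pairs, NV2.17701 was inside with a smallest ratio of 0.301 and NV2.24069 outside with 0.299. At the minimum level, NV2.10136 was inside with 2.06 CPM in shRNA libraries and NV2.14 outside with 1.97 CPM. The mean limit thus runs through genes whose ratios differ by less than the spread of their own pairs, which was 0.10 to 0.31 (SD, n = 4) for those just inside and 0.11 to 0.25 for those just outside.

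None of the 94 carries a gene name in the files. The RefSeq gene table for the species matched 0 identifiers, so no function can be given for a member, and they are described by their identifiers, levels and patterns.

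Most members differed moderately between the groups. Their mean ratio ran from 0.59 to 2.70 on the log2 scale, with a median of 0.86, against 0.05 over all 15441 genes at the same minimum level. At least a 2-fold mean difference was seen in 32 members and at least a 4-fold one in 4. In 9 members every one of the 4 pairs differed by at least 2-fold. The smallest single pair ratio was 0.30, at the limit, and 22 members had a pair ratio under 0.4. Without overlap between the 4 shRNA and the 4 control libraries were 25 members, beside 0.557% of all genes at that level, a count on which the choice of members bears directly.

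**Figure D1:**
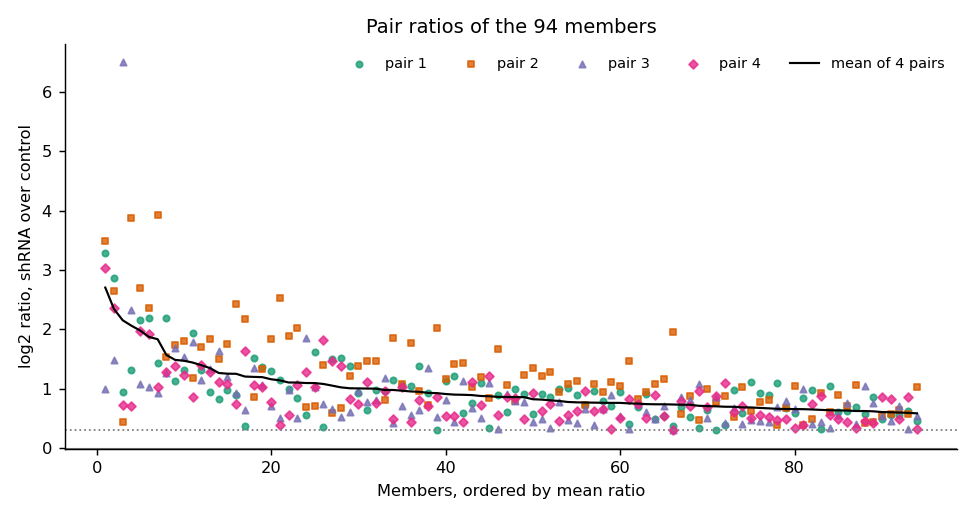
Log2 ratio of shRNA over control (vertical axis) for each of the 94 members, ordered by mean ratio from left to right, with a point for each of the 4 pairs, a black line for the mean and a dotted line at the limit of 0.3. Points of pair 2 often lie above the others, and the single point at 6.49 is NV2.18858 in pair 3.

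The pairs did not contribute equally. Members had a median ratio of 0.91, 1.07, 0.72 and 0.75 in pairs 1 to 4, while all genes at that level had -0.01, 0.06, 0.04 and 0.08. The largest of a member's 4 ratios fell in pair 2 for 53 members, in pair 1 for 20, in pair 3 for 12 and in pair 4 for 9. Pair 2 also held the largest ratio for 49.8% of all 1976 genes that were higher in every pair, so the lead of pair 2 is shared by genes outside the members. Pair 4 held it for 21.3% of those genes. The spread between a member's pairs had a median SD of 0.31 on the log2 scale, with 22 members above 0.5 and 9 under 0.15. The most even members, picked out after their values were seen, were NV2.10136, with pair ratios between 0.69 and 0.83, and NV2.20840, with pair ratios between 0.80 and 0.99.

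The 10 members with the largest mean ratio are given first. NV2.19602 had the largest mean, 2.70 ± 1.15 (SD, n = 4 pairs). Its level was 2.80, 4.40, 0.422 and 0.966 CPM in shRNA replicates 1 to 4, against 0.197, 0.311, 0.166 and 0.043 CPM in the controls. All 4 shRNA libraries lay above all 4 controls, but the controls stood near the limit of detection. In pair 4 the ratio rested on 19 counts in the shRNA library against 1 in the control, a 22.3-fold ratio with an exact 95% interval of 3.5 to 926.2 for counting error. NV2.19602 was the 1 member with too few counts for edgeR's filter.

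NV2.15145 combined a large ratio with ample counts. It had 19.8, 26.5, 6.91 and 11.9 CPM in shRNA replicates 1 to 4, against 2.62, 4.17, 2.41 and 2.25 CPM in the controls. Every shRNA library stood above every control, and the mean ratio was 2.34 ± 0.61 (SD, n = 4). It has a pair of annotated transcripts, and the shorter one, of 643 bases, carried most of its counts, averaging 14.3 CPM in the shRNA group and 2.32 CPM in controls. The longer one, of 826 bases, averaged 1.99 and 0.54 CPM in shRNA and control libraries. Both transcripts were higher in the shRNA library of every pair.

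NV2.18858 owed its place among the 10 to 1 library. It had 9.69, 7.96, 7.40 and 8.37 CPM in shRNA replicates 1 to 4, against 4.98, 5.86, 0.0 and 5.0 CPM in the controls. The shRNA libraries were close to each other, and 3 of the controls likewise, while control replicate 3 held 0 counts. In pair 3 the shRNA library, with 193 counts, was at least 59.4-fold higher than the limit of 3 counts allows for the control, and without pair 3 the mean ratio was 0.71 in place of 2.15. The sum of this gene was whole in 1 of 8 libraries, and that library was control replicate 3 with its 0. In every library that held counts of it, reads were divided between it and other genes. The bound against 3 counts covers counting error only, and whether the 0 came from the division of reads was not tested. NV2.13428, another member of low level, had 2.50, 3.72, 2.66 and 1.03 CPM in shRNA libraries, against 0.936, 0.171, 0.459 and 0.605 CPM in controls. Its groups did not overlap, the mean ratio was 2.06 ± 1.39 (SD, n = 4), and its sum was whole in 0 libraries.

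A trio of members had almost the same profile. NV2.5856 had 10.1, 4.24, 12 and 13.5 CPM in shRNA replicates 1 to 4, against 2.17, 0.577, 5.65 and 3.38 CPM in the controls. NV2.25360 had 7.14, 4.88, 8.85 and 10.5 CPM in shRNA libraries, against 1.48, 0.888, 4.28 and 2.73 CPM in controls. NV2.13225 had 8.26, 2.73, 11.6 and 11.4 CPM in shRNA libraries, against 1.73, 0.889, 4.79 and 4.64 CPM in controls. In both groups replicate 2 was the lowest library of all 3 genes, and within every pair the shRNA library was above its control by at least 2-fold. Their mean ratios were 1.98 ± 0.68, 1.87 ± 0.59 and 1.57 ± 0.43 (SD, n = 4 each). The log2 levels of NV2.5856 followed those of each of the other two with Pearson's r = 0.97 over the 8 libraries, which share the difference between replicate numbers.

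The remaining members of the 10 were of low level. NV2.15267 had 6.07, 3.27, 4.53 and 5.96 CPM in shRNA replicates 1 to 4, against 2.17, 0.133, 2.33 and 2.86 CPM in the controls. Its groups did not overlap, and its largest pair ratio, in pair 2, rested on 61 counts in the shRNA library and 3 in the control, a 24.6-fold ratio with an exact 95% interval of 8.0 to 122.4 for counting error. NV2.17825 had 2.41, 1.82, 2.61 and 3.41 CPM in shRNA libraries, against 1.04, 0.488, 0.747 and 1.26 CPM in controls. NV2.15715 had 1.77, 2.52, 3.41 and 3.37 CPM in shRNA libraries, against 0.644, 0.666, 1.12 and 1.39 CPM in controls. For these last genes the 4 pairs lay close together, with mean ratios of 1.49 ± 0.29 and 1.47 ± 0.25 (SD, n = 4 each), and no shRNA library was as low as any control. Of the 10 genes, 8 had groups that did not overlap, beside 0.557% of all genes at the same minimum level. The choice of these genes by their ratio bears directly on that count.

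**Figure D2:**
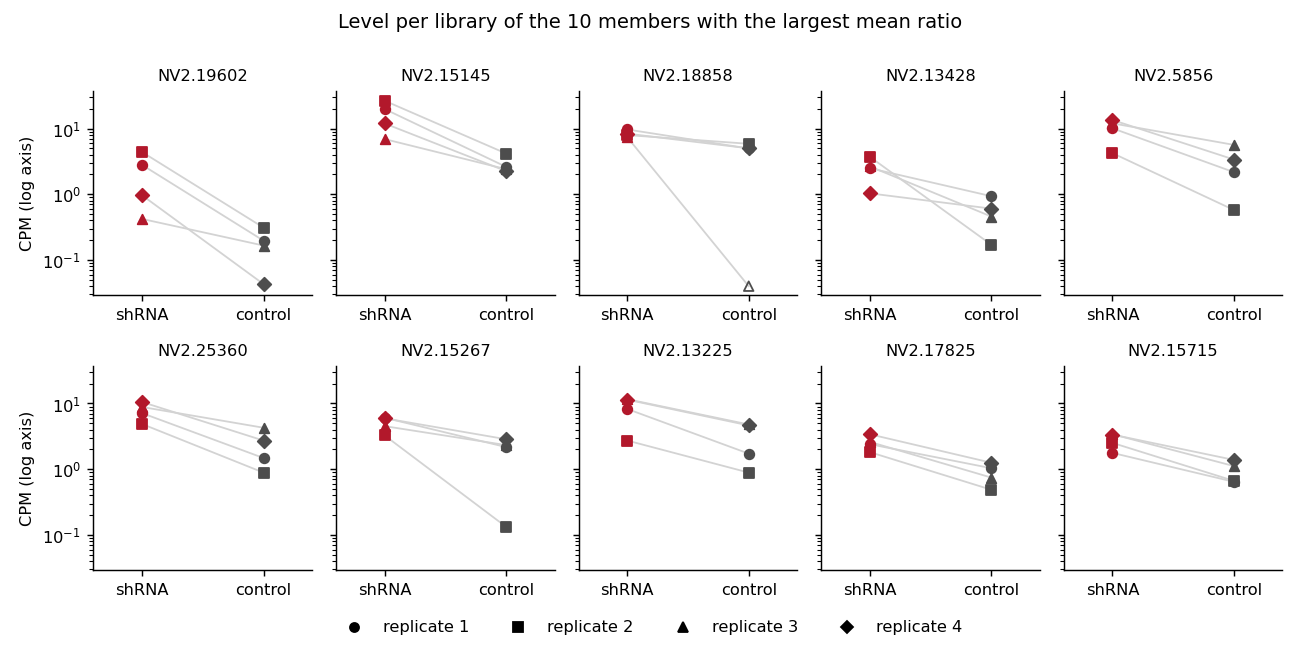
CPM on a log axis for the 10 members with the largest mean ratio, shRNA libraries (red) left of control libraries (grey), with a marker for each replicate and a line joining the libraries of a pair. The open triangle of NV2.18858 is control replicate 3, which held 0 counts and is drawn at the lower edge of the scale. Every line runs down to the control, as the choice of members requires, and in 8 of the 10 panels the groups do not overlap.

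The members were mostly genes of low level. Their mean level had a median of 8.57 CPM in shRNA libraries, between 2.06 and 231.7, and of 4.49 CPM in controls, between 0.179 and 150.9. Under 5 CPM in shRNA libraries were 36 members, 47 had 5 to 50 CPM and 11 had 50 CPM or more. Per length, the median in controls was 2.82 TPM (Salmon's abundance, corrected for transcript length and scaled to a common total), below the 11.02 TPM of all genes at the same minimum level, a minimum set on the shRNA libraries, in which the members are high by choice. In the shRNA libraries 32 members reached a mean of 10 TPM. Their main transcripts, with a median length of 2332 bases, were about as long as those of all genes at that level, with 2475 bases, and 72.3% had a single annotated transcript, against 71.3% of all genes.

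The 5 members of highest CPM had mean ratios near the median of the members or below it. NV2.17164, with the highest mean CPM, had 197.0, 113.9, 298.7 and 317.2 CPM in shRNA replicates 1 to 4, against 131.2, 55.6, 224.0 and 192.7 CPM in the controls. NV2.11802 had 279.4, 233.4, 131.8 and 224.7 CPM in shRNA libraries, against 139.1, 110.5, 94.6 and 153.2 CPM in controls. NV2.24965 had 78.4, 26.2, 189.2 and 184.3 CPM in shRNA libraries, against 51.4, 12.5, 100.2 and 101.5 CPM in controls. These genes were higher in the shRNA library of each pair, but shRNA and control libraries of different replicate numbers overlapped. NV2.11825 also overlapped, with 135.8, 68.0, 94.3 and 160.0 CPM in shRNA libraries, against 75.1, 27.8, 74.8 and 95.4 CPM in controls. NV2.1640 was the exception, with 116.4, 138.8, 95.1 and 98.7 CPM in shRNA libraries, against 74.8, 69.5, 66.9 and 60.8 CPM in controls, so that its groups stood apart. The mean ratios of these genes of highest CPM were 0.69, 0.78, 0.86, 0.81 and 0.71 in the order given.

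Per length the order changed. NV2.11802 was the most abundant member at 141.4 TPM in shRNA libraries and 79.0 TPM in controls, followed by NV2.1640 at 79.3 and 46.5 TPM and NV2.11825 at 76.7 and 45.1 TPM. NV2.17164, whose main transcript is 6170 bases long, came to 47.1 TPM in shRNA libraries and 29.9 TPM in controls. Reads of several of these genes were divided with other genes. For NV2.11802, NV2.1640, NV2.11825 and NV2.24965 the estimated count was a whole number (tolerance 0.01) in 0 of 8 libraries, which limits how far the values of these genes can be trusted. Among all members 19 (20.2%) had a whole sum in 0 libraries, against 44.0% of all genes at the same minimum level, and 7 had a whole sum in all 8.

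The contrast between the groups was also fitted across all genes. Because it is the contrast that chose the members, its calls are counts to be read beside the background and not as support. edgeR's quasi-likelihood test was run with no pairing, an adjusted p of 0.05 or less and a 1.5-fold limit. It called 0 of 93 tested members and 0% of all 19002 tested genes. That fit leaves out the pairing of which the study's methods speak. With 0% of all genes called, its 0 tells nothing of the members. At an unadjusted p of 0.05 or less the same test gave 34 members, beside 0.395% of all genes (and 1.22% in the other direction). With the replicate number as a block, 37 of 93 were called higher, beside 0.211% of all genes. DESeq2 called 6 of 94 without the block, beside 0.0337%, and 54 with it, beside 0.35%. The count with the block depended on single replicates, with 10 members called without replicate 1, 30 without replicate 2, 28 without replicate 3 and 20 without replicate 4, beside 0.0677%, 0.177%, 0.187% and 0.121% of all genes.

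A comparison the choice did not use is that between replicate numbers. Replicates 3 and 4 were set against replicates 1 and 2 with the treatment as a covariate, since each prefix holds 2 libraries of each group. In this edgeR fit 47 of 93 members (50.5%) were called, 23 higher (24.7%) and 24 lower (25.8%) in replicates 3 and 4. Of all 19002 tested genes 52.3% were called, 26.9% higher and 25.4% lower. The members thus varied between replicates about as often as other genes, and in both directions about equally. Libraries of the same number deviate together, but this fit takes 8 libraries as separate samples. Its p-values, also those given below for single genes, are therefore too small for a difference between replicate numbers. They measure the spread between these libraries only. The count rested on single replicates: 62 members were called without replicate 1, beside 59.1% of all genes, 23 without replicate 2, beside 31.7%, and 28 without replicate 4, beside 31%. Without replicate 3 the test called 0 members and 0% of all genes, with 31 members (33%) and 38.2% of genes at an unadjusted p of 0.05 or less. In the control libraries alone it likewise called 0 members and 0% of genes, with 25 members (26.9%) and 32.5% of genes at the unadjusted threshold.

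Among the members higher in replicates 3 and 4, NV2.17790 had the largest difference. It measured 63.5 and 48.6 CPM in shRNA replicates 3 and 4 and 47.4 and 34.4 CPM in control replicates 3 and 4, against 16.3 and 5.52 CPM in shRNA replicates 1 and 2 and 7.31 and 1.46 CPM in control replicates 1 and 2. Each library of replicates 3 and 4 was above each library of replicates 1 and 2, by 2.58 ± 0.49 (SE) on the log2 scale (adjusted p = 0.00579, edgeR). NV2.3078 ran almost in parallel, with 7.54 and 6.05 CPM in shRNA replicates 3 and 4 and 5.07 and 4.46 CPM in the same controls, against 2.17 and 0.804 CPM in shRNA replicates 1 and 2 and 0.987 and 0.178 CPM in the same controls. It differed by 2.35 ± 0.47 (SE) on the log2 scale (adjusted p = 0.00596, edgeR). These genes had the most alike profiles of all members, with Pearson's r = 0.999 of their log2 levels over 8 libraries, and their ratios differed by at most 0.14 in any pair.

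NV2.8589 and NV2.16551 shared the adjusted p of NV2.17790. NV2.8589 averaged 13.1 CPM in replicates 3 and 4 and 3.33 CPM in replicates 1 and 2 over both treatments, a log2 difference of 1.82 ± 0.33 (SE) (adjusted p = 0.00579, edgeR). For NV2.16551 the means were 21.4 CPM in replicates 3 and 4 and 4.31 CPM in replicates 1 and 2, which differ by 2.1 ± 0.35 (SE) on the log2 scale at the same adjusted p. Yet the shRNA libraries of NV2.16551 were above their controls by an almost constant ratio, 0.57, 0.64, 0.72 and 0.49 in pairs 1 to 4, which made it one of the most even members. NV2.8589 was uneven, with 1.95 in pair 2 and 0.38, 0.32 and 0.31 in pairs 1, 3 and 4.

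The members lower in replicates 3 and 4 included NV2.3092. It had 22.7 and 22.8 CPM in shRNA replicates 3 and 4 and 9.97 and 11.7 CPM in control replicates 3 and 4, against 43.9 and 64.3 CPM in shRNA replicates 1 and 2 and 22.4 and 36.4 CPM in control replicates 1 and 2. Its shRNA libraries of replicates 3 and 4 stood at the level of control replicate 1, and the log2 difference between replicates was -1.61 ± 0.25 (SE; adjusted p = 0.00579, edgeR). Between treatments its pairs were even, with ratios of 0.96, 0.82, 1.18 and 0.96.

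The other members of smallest adjusted p in this direction behaved alike. NV2.14739 averaged 33.6 CPM in replicates 3 and 4 and 64.2 CPM in replicates 1 and 2, a log2 difference of -1.18 ± 0.21 (SE) (adjusted p = 0.00579, edgeR). NV2.25612 averaged 3.33 CPM in replicates 3 and 4 and 8.35 CPM in replicates 1 and 2, at -1.61 ± 0.32 (SE) and an adjusted p of 0.00594 in edgeR. NV2.1605 averaged 31.2 CPM in replicates 3 and 4 and 70.6 CPM in replicates 1 and 2, at -1.39 ± 0.28 (SE) and an adjusted p of 0.00617 in edgeR. Their mean pair ratios between treatments were 0.64, 0.63 and 0.76, below the members' median of 0.86. Over all tested members the fold changes between replicates ran from -1.61 to 2.58 on the log2 scale, and 7 differed by 4-fold or more. Of the 93 tested members 41 differed more between replicate numbers than their mean pair ratio between treatments, in size. The shares among other genes were not computed for these counts, so they show nothing particular to the members. The choice of members by that ratio also bears directly on the count of 41.

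**Figure D3:**
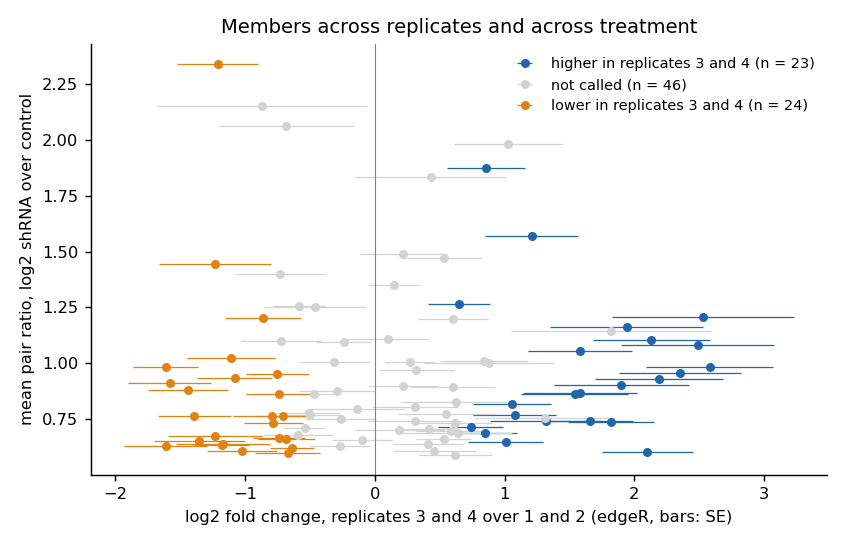
Log2 fold change of replicates 3 and 4 over replicates 1 and 2 (horizontal axis, bars give the SE from edgeR) against the mean pair ratio of shRNA over control (vertical axis, log2) for the 93 tested members, with 23 called higher (blue), 24 called lower (orange) and 46 not called (grey). Members spread to both sides of 0, and those above a mean ratio of 1.5 are found on both sides as well.

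In pairs 2 and 4 the median ratio went with the replicate behaviour, in members and in all genes. In pair 3 the class higher in replicates 3 and 4 had the lowest median in both. In pair 1 the order of the classes differed between members and all genes. The link in pairs 2 and 4 is in part built in, because the classes and the ratios use the same libraries. A low level in control replicate 2 both raises the ratio of pair 2 and moves a gene toward the higher class. The 23 members higher in replicates 3 and 4 had median ratios of 0.83, 1.41, 0.61 and 0.86 in pairs 1 to 4, so pair 2 stood out, and 16 of them had their largest ratio there. The 24 members lower in replicates 3 and 4 had 0.94, 0.77, 0.76 and 0.69, without a lead of pair 2, which held the largest ratio of 6. For the 46 members not called the medians were 0.93, 1.08, 0.79 and 0.75. Among all genes the medians were nearer to 0, and those of the higher class were largest in pairs 2 and 4. The 4660 genes of the same minimum level that were higher in replicates 3 and 4 had medians of 0.09, 0.28, -0.02 and 0.30, and the 4571 lower ones had -0.07, -0.07, 0.08 and -0.08. Pair 2 is also the pair in which the shRNA library was shifted most, relative to its control, toward replicates 3 and 4 on the first principal component. The part of that shift in the ratios of the members was not tested.

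**Figure D4:**
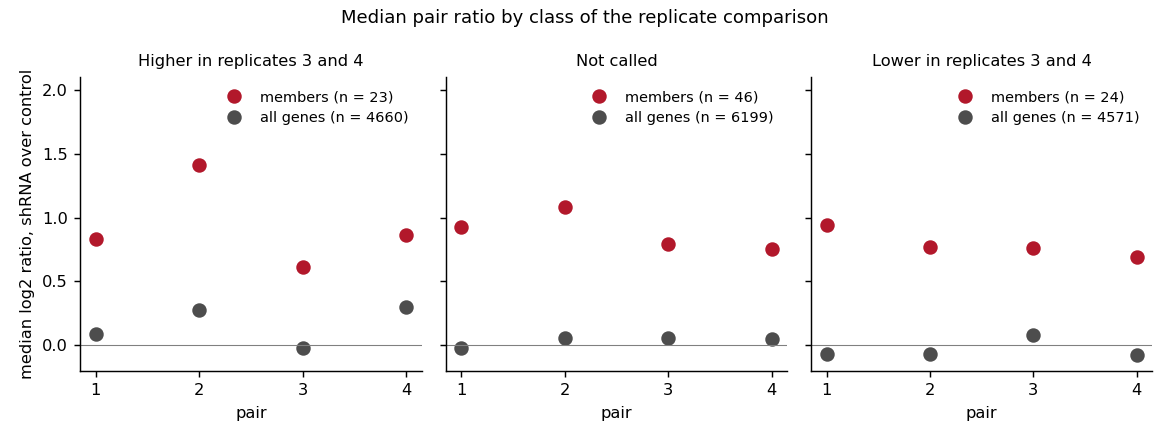
Median log2 ratio of shRNA over control in pairs 1 to 4 for members (red) and for all genes of the same minimum level (grey), in 3 panels by the call between replicates 3 and 4 and replicates 1 and 2. In the left panel both medians are raised in pair 2, to 1.41 for members and 0.28 for all genes (which had 0.30 in pair 4), and in the right panel neither is.

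The level of members in each replicate number, averaged over both treatments, was highest in replicate 3 for 35 members, in replicate 2 for 27, in replicate 4 for 20 and in replicate 1 for 12. No replicate number thus held most of them, and the split among all genes was not computed.

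Where a gene has several transcripts, the estimated counts were also compared per transcript. Of the 94 members 15 had 2 or more transcripts with a mean of at least 1 CPM in shRNA libraries, and in 13 of these every such transcript had a mean ratio above 0. In 4 of them each such transcript was higher in the shRNA library of all 4 pairs. The choice of members by gene sums, and of transcripts by their shRNA level, bears directly on these counts. The share among other genes was not computed. A change in the share of a gene's transcripts between treatments, tested with edgeR's diffSpliceDGE with the replicate block, was called in 0 of 19 members with enough counts, beside 0.082% of 3657 genes, which does not show that the shares were equal. At an unadjusted p of 0.05 or less the test gave 1 member, NV2.6060, beside 2.49% of genes.

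NV2.6060, named here because of that count, showed how unevenly transcripts can contribute. The gene had 34.5, 34.5, 48.1 and 41.3 CPM in shRNA replicates 1 to 4, against 17.8, 9.63, 19.1 and 17.0 CPM in the controls, without overlap. Its transcript 2, of 6799 bases, differed by slightly more than the gene as a whole, averaging 35.9 CPM in the shRNA group and 11.8 CPM in the control group and a mean ratio of 1.62. Transcript 1, of 6027 bases, averaged 1.74 and 1.37 CPM in shRNA and control libraries, and its ratios were -0.31, -1.86, 0.71 and 0.29 in pairs 1 to 4. Transcript 5, of 3279 bases, averaged 1.47 and 1.75 CPM in shRNA and control libraries. Its ratios were 0.20, 0.32, -0.64 and -0.40 in the same pairs, with a mean of -0.13. Transcript 2 held 91.1% of the gene's counts in shRNA libraries and 75.5% in controls, on average, while the adjusted p of the share test in edgeR was 1.0.

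NV2.16551 was the other member with a transcript of mean ratio below 0. Its transcript 2, of 4194 bases, averaged 10.4 CPM in the shRNA group and 6.77 CPM in the control group and had ratios of 0.43, 0.92, 0.77 and 0.50. Transcript 1, of 6078 bases, had ratios of 0.79, 0.64 and 0.45 in pairs 1, 3 and 4 but -1.96 in pair 2, where it was at 0 in the shRNA library. Salmon divides reads among the transcripts of a gene, and a transcript listed at 0 beside another transcript of the gene with counts can be a failed estimate.

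In NV2.14741, the member of smallest mean ratio, the estimates jumped between transcripts. The gene had 11.2, 7.72, 19.4 and 12.1 CPM in shRNA replicates 1 to 4, against 8.14, 3.73, 13.3 and 9.66 CPM in the controls. Its transcript 3 held most of these counts in every library but control replicate 3, with 6.81, 7.72, 12 and 12.1 CPM in shRNA libraries, against 8.14, 3.73, 0.0 and 9.66 CPM in controls, while transcript 1 took 10.4 CPM in control replicate 3. The sum over transcripts was steadier than either, with ratios of 0.46, 1.04, 0.54 and 0.32.

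The 3 pairs of members with consecutive identifier numbers had like profiles, as did some members far apart by number. The files give no positions, so a neighbouring number is not shown to be a neighbouring place in the genome. NV2.24965, given above, and NV2.24966 form the first. NV2.24966 had 23.7, 10.2, 72.3 and 79.2 CPM in shRNA replicates 1 to 4, against 13.2, 2.45, 50.9 and 38.0 CPM in the controls, with the lowest level of both groups in replicate 2, as in its neighbour.

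NV2.9880 and NV2.9881 were highest in replicate 4 of both groups. NV2.9880 had 32.6, 8.01, 45.7 and 97.7 CPM in shRNA libraries, against 13.1, 2.18, 27.8 and 56.8 CPM in controls. NV2.9881 had 11.4, 6.64, 14.3 and 23.3 CPM in shRNA libraries, against 5.98, 2.80, 10.1 and 15 CPM in controls. The order of the replicate numbers was the same for both genes and in both groups.

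NV2.1046 and NV2.1047 ran the other way, with their highest level in replicate 2. NV2.1046 had 13.6, 17.5, 4.47 and 9.92 CPM in shRNA libraries, against 6.86, 12.4, 3.36 and 5.89 CPM in controls. NV2.1047 had 38.0, 41.1, 10.5 and 27.4 CPM in shRNA libraries, against 18.4, 26.9, 8.26 and 18.5 CPM in controls. Log2 levels within the 3 consecutive pairs had Pearson's r of 0.98, 0.99 and 0.98 over 8 libraries, in the order given. Another 3 pairs lay within 3 numbers of each other, NV2.17698 and NV2.17701 with r = 0.99, NV2.9586 and NV2.9589 with r = 0.80, and NV2.14739 and NV2.14741 with r = -0.42, so a near number did not always go with a like profile. Nor was a like profile particular to near numbers, since NV2.24966 had r = 0.995 with NV2.2227 and with NV2.17701. All these profiles share the difference between replicate numbers.

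The neighbours by number that are not members did not share the difference as a group. There were 97 such genes at the same minimum level, with a median mean ratio of 0.04, against 0.05 over all genes, and 13 of them were higher in the shRNA library of all 4 pairs, a share close to the 12.8% of all genes.

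A few members stood next by number to a gene of the published cnidocyte collection. This held for 3 members (3.19%), beside 0.253% of all genes at the same minimum level, and these are NV2.11802 beside ncol4, a minicollagen gene of the cnidocyte capsule, NV2.23248 beside coup-like1, a nuclear receptor gene, and NV2.10391 beside NVE17236. NV2.11802, whose levels are given above, was higher in every shRNA library than in its control. The gene ncol4 (NV2.11801) was lower in every pair, with 159.5, 206.4, 57.6 and 120.3 CPM in shRNA replicates 1 to 4, against 245.5, 273.4, 158.9 and 187.0 CPM in the controls. Neither gene had a whole sum in any of the 8 libraries. Reads of each were divided with some other gene, which may or may not be its neighbour. Summed over both, the level was 438.8, 439.8, 189.4 and 345.1 CPM in shRNA libraries, against 384.6, 383.9, 253.5 and 340.2 CPM in controls, with log2 ratios of 0.19, 0.20, -0.42 and 0.02 in pairs 1 to 4. The sum thus had no common direction, and whether reads moved between these genes in the estimates was not tested.

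NV2.23248 had 18.9, 9.81, 14.8 and 24.7 CPM in shRNA replicates 1 to 4, against 9.01, 4.62, 8.94 and 12.1 CPM in the controls. Its neighbour coup-like1 (NV2.23247) had 68.1, 60.2, 50.2 and 59.6 CPM in shRNA libraries, against 68.3, 65.6, 61.1 and 69.1 CPM in controls, with a mean ratio of -0.16 ± 0.12 (SD, n = 4). The member thus differed by about its own control level while its neighbour differed by little. NV2.10391 was of low level, with 2.76, 1.34, 2.95 and 3.98 CPM in shRNA libraries, against 0.987, 0.533, 1.91 and 2.21 CPM in controls, and NVE17236 had 0.749, 0.643, 2.03 and 1.43 CPM in shRNA libraries, against 0.79, 0.133, 3.16 and 2.43 CPM in controls. Farther off, NV2.10136 lay 2 numbers from dkk3-like3 and NV2.11825 lay 5 from the minicollagen gene Ncol.

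**Figure D5:**
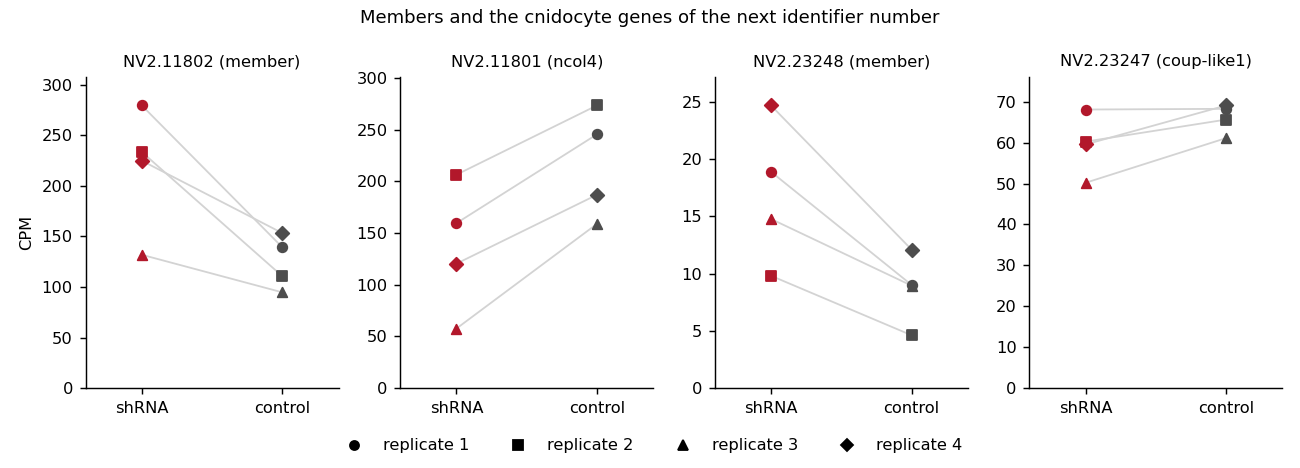
CPM per library (linear axes from 0) of the members NV2.11802 and NV2.23248 and of the cnidocyte genes with the next number, ncol4 and coup-like1, shRNA libraries (red) left of control libraries (grey), with a marker for each replicate and a line joining a pair. The lines of both members run down to the control, those of ncol4 run up, and those of coup-like1 are nearly level or run up.

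In the cnidocyte collection more genes were called lower than higher. The study marked part of it from these same libraries, so its direction is not independent evidence. Of its 34 tested genes, NvfoxE-like included, 2 were called higher and 13 lower with edgeR and the replicate block, beside 0.211% and 1.07% of all genes. Without the block edgeR called 0 (2 higher and 12 lower at an unadjusted p of 0.05 or less), where all genes had 0.395% and 1.22%. DESeq2 called 0 higher and 4 lower of 38, beside 0.0337% and 0.19% of all genes, and 2 higher and 15 lower with the block, beside 0.35% and 1.37%. The genes called higher were the left-out coup-like2 and foxL2. coup-like2 (NV2.1477) had 36.4, 23.9, 16.6 and 26.2 CPM in shRNA replicates 1 to 4, against 12.9, 16.2, 10.8 and 15.5 CPM in the controls, and foxL2 (NV2.14459) had 16.6, 13.6, 12.2 and 16.1 CPM in shRNA libraries, against 10.02, 8.61, 8.10 and 8.86 CPM in controls. By mean ratio coup-like2 would stand near the median of the members and foxL2 below it, and neither overlapped between groups.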

How the data were processed

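Bulk polyA RNA of 4 NvfoxE-like shRNA and 4 scramble control libraries was sequenced as 150 bp paired-end reads, which the provider trimmed and filtered. The authors quantified them with Salmon against Nvec200 transcripts on Galaxy, and the submitters' processing notes also name DESeq2. For versions, strand and bias settings: not given in the sources used here. The deposited values are estimated counts, which Salmon made by assigning reads to 35819 transcripts per library, and they need not be whole because reads are divided among transcripts. The deposited TPM values, scaled per library by Salmon, served to compare levels per length, and the deposited transcript lengths were copied as given.

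Estimated counts were summed per gene over the transcripts that share the number in the identifier. CPM divides them by the library total. They were rounded to whole numbers for edgeR 4.0.16 (TMM scaling, filterByExpr with a minimum count of 10, quasi-likelihood F test) and DESeq2 1.42.0 under R 4.3.3, with Benjamini-Hochberg adjustment over all tested genes. Scripts were tested on simulated data. A chi-square test found every pair of libraries to differ beyond sampling noise. The labels do not say that pools came from separate spawnings, so p-values measure the spread between these pools.

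The study's methods speak of paired knockdown and control samples. Across genes, the deviations from the group mean of the shRNA and control libraries with one number had r = 0.54, 0.91, 0.89 and 0.79 (replicates 1 to 4). The number was therefore treated as a pairing, although libraries of the same prefix but another number correlated to a like degree (0.58 for shRNA 1 with control 2 and 0.79 for shRNA 4 with control 3).

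The members and lists were chosen with earlier results of these data known. Named were the 10 members of largest mean ratio, the 5 of highest mean CPM in shRNA libraries, the 3 nearest the mean limit on either side, up to 4 of smallest adjusted p in each direction between replicate numbers, members with consecutive identifiers, and NvfoxE-like, coup-like2 and foxL2. Others are named beside a count or were singled out after their values were seen. Alternatives were other scalings, added counts, filters, tools, length-scaled TPM counts, the replicate block and leaving out each replicate. The files name no member, so no sequence is shown.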

Additional observations from a re-analysis of the deposited data

Results flagged for a closer look

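In 66 groups of 4 libraries tested for a library far from the others (Dixon's test at its 95% critical value, which chance alone passes in about 1 of 20 groups), 1 stood out. The control level of NV2.18858 was 0.0 CPM in replicate 3, against 4.98, 5.86 and 5.0 CPM in control replicates 1, 2 and 4, a gap of 0.849 of the range.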

How the results depend on the processing

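The choice gave 84 genes with TMM scaling (82 of the 94 among them), 86 with DESeq2's size factors (85), 98 and 87 with 0.5 and 5 counts added in place of 2 (94 and 87), and 94 with length-scaled TPM counts (91). Without a minimum CPM it gave 240, and with a minimum of 5 CPM 58. Leaving out each replicate in turn gave 142 to 289 genes, since 3 pairs are an easier condition than 4, with 84 to 88 of the members among them. Within one prefix, an alternative added after seeing the data, pairs 3 and 4 gave 388 genes (68 of the members) and pairs 1 and 2 gave 441 (77). Of 150 mean ratios of the 30 named members recomputed on all 4 pairs, 0 moved by as much as the SD of the pairs. On 3 pairs no sign could turn, since every ratio is at least 0.3 by choice, but 8 named members fell under the limit of 0.585 without one pair (NV2.8589 to 0.33 without pair 2), and NV2.18858 had 0.71 without pair 3. Between shRNA and control libraries, 0 members were called by edgeR without the block, and 37 with the replicate block, 6 with DESeq2 and 54 with DESeq2 and the replicate block. Leaving out each replicate gave 0 each time without the block, a test that called 0 of all genes on the full set of libraries and so tells nothing of stability, and 10 to 30 with it, the last added after seeing the data. Of the cnidocyte collection 0 genes were called without the block, 15 with the replicate block and 4 with DESeq2. Between replicate numbers 45 to 49 members were called under DESeq2, other scaling, no filter or length-scaled counts and 61 with the replicate block, but 0 in control libraries alone, and 0 to 62 when each replicate was left out. For the counts of 45 to 49 and of 61 the share of all genes was not computed. They therefore show nothing particular to the members, since the main fit called 52.3% of all genes. The transcript share test called 0 members under each alternative run, which likewise tells nothing of stability. Depth limits the members with few counts: 5 had a library at or under 3 counts.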
